A study of Mus musculus with 6 samples.

Results

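The amyloid processing and Alzheimer risk genes described here are 9 genes taken from a list of names: App, Adam10, Bace1, Psen2, Sorl1, Picalm, Bin1, Cd2ap and Clu. All 9 were among the 53640 gene symbols listed in all 6 count tables, and all 9 passed the filter on low counts that left 20694 genes for testing. RNA was sequenced from brain tissue labelled PFC of mice aged 6 months, with 2 libraries in each of 3 groups that the labels describe as biological duplicates. Treated tau libraries were those of PS19 mice (human tau with the P301S mutation, as a transgene) that had received WDR5-0103, a compound directed at WDR5, a shared subunit of histone H3K4 methyltransferase complexes; the labels used here give no dose. Tau libraries came from PS19 mice given vehicle, and control libraries from vehicle-treated mice of the C57BL/6 x C3H background without the transgene. In the PS19 line the transgene is driven by the prion promoter, which is active in many neurons of the brain. No APP transgene is named in any group, so all amyloid genes read here are endogenous.

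The amyloid precursor protein is a membrane protein that is cut along either of 2 routes. Cutting by ADAM10, the main neuronal α-secretase, falls inside the amyloid β stretch and prevents its release, while cutting by BACE1, the β-secretase, followed by γ-secretase, whose catalytic subunit is a presenilin such as PSEN2, releases amyloid β. SORL1 is a sorting receptor that steers the precursor away from the compartments where it meets BACE1, and PICALM, BIN1 and CD2AP act in clathrin endocytosis, membrane bending and the link between endocytosis and actin. CLU, also called clusterin or apolipoprotein J, is a secreted chaperone that binds amyloid β and lipids. Human variants near several of these genes carry risk of late-onset Alzheimer disease.

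Most of the 9 genes differed little between the groups: the one call was that of Cd2ap, which was lower in treated tau than in control. Tests were made with the quasi-likelihood test of edgeR over all 6 libraries, and a gene is called at a Benjamini-Hochberg adjusted p under 0.05 over the 20694 genes. CPM are read counts relative to the library total, scaled between libraries by the TMM method, and RPKM are CPM per kilobase. In tau against control 0 of the 9 genes were called, where 0% of all tested genes were called. At an unadjusted p under 0.05 edgeR gave 2 of the 9, Clu and Picalm, both higher, where it gave 9.95% of all genes (4.31% higher and 5.64% lower), and DESeq2 and limma-voom called 0 of the 9. Positive values stood at 6 of the 9, against 49.4% of all genes, and the libraries did not overlap for 4 genes that were higher and 2 that were lower in tau, against 20.3% and 21.3% of all genes.

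For treated tau against tau, 0 of the 9 were called where 3.76% of all genes were (3.09% higher and 0.677% lower). Sorl1, higher, and Cd2ap, lower, had an unadjusted p under 0.05 by edgeR, where 12% of all genes did (7.52% higher and 4.44% lower), and DESeq2 and limma-voom called 0 of the 9. Positive values stood at 3 of the 9, against 48.7% of all genes. Libraries did not overlap for 3 higher and 4 lower genes, against 21.2% and 20.1% of all genes.

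For treated tau against control, 1 of the 9 was called, lower, where 4.22% of all genes were called, 3.32% higher and 0.899% lower. The 9 genes are all protein-coding, and the shares of all genes called include other gene classes. With 14739 protein-coding genes fitted alone, 40 were called in treated tau against control and 45 in treated tau against tau, with 0 of the 9 in either. At an unadjusted p under 0.05 edgeR gave 3 of the 9, App and Clu higher and Cd2ap lower, where it gave 16.3% of all genes (8.17% higher and 8.09% lower). Positive values stood at 8 of the 9, against 48.8% of all genes, and libraries did not overlap for 4 higher genes and 1 lower gene, against 23% and 23.3% of all genes. The comparisons share libraries, so the values in one are not independent of those in the others.

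Total counts lay between 17690811 (tau 2) and 34774643 (treated tau 1), and the 9 genes together held between 0.317% and 0.339% of them. Several libraries stood apart from the other library of their group. Prnp, whose promoter drives the transgene, reached 1472 to 1876 CPM in the PS19 libraries. Of the controls it had 1654 CPM in the one labelled control 1 and 876 CPM in control 2. By Prnp alone, control 1 goes against its label. Levels of Mapt, the mouse gene that encodes tau, were 576 CPM in control 1 and 450.4 CPM in control 2. Whether reads of the human transgene add to Mapt was not tested. In tau the levels of Mapt were 574 and 589.7 CPM, near control 1. In treated tau they were 459 and 497 CPM, between those of the control libraries. For Mapt too, all PS19 libraries thus lay above control 2, treated tau 1 only slightly, and control 1 lay within their range. The cause of the Prnp level in control 1 was not tested. Summed markers of olfactory bulb neurons stood at 90.4 CPM in control 1 and at 2.87 to 5.41 CPM in the other 5. Summed markers of striatal neurons stood at 166 CPM in tau 2 and 97.3 CPM in tau 1, above the 63.9 to 78.3 CPM of the control and treated tau libraries. All 6 striatal markers were higher in both tau libraries than in both control libraries, and 0 were called. In treated tau against tau all 6 were lower, with 2 called. This difference goes with the tau group, and its part in the values of the 9 genes was not tested. Summed oligodendrocyte markers reached 3943 CPM in tau 2 and stood lowest, at 1009.8 CPM, in control 2. Markers of cortical excitatory neurons (Slc17a7, Camk2a, Neurod6, Tbr1 and Cux2), which fit the labelled tissue, were present in all 6, at a sum of 2126 to 2519 CPM. Xist, which female cells express, was at 2.43 and 1.75 CPM in treated tau, at 186 and 235 CPM in tau, and at 0.197 and 318 CPM in control. Sex and treatment can therefore not be told apart in treated tau against tau. In bulk tissue, fewer cells of a type and less RNA per cell cannot be told apart.

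Per kilobase of annotated exons, Clu was at the top of the 9, at 129 to 160 RPKM over the 6 libraries, followed by App at 94.3 to 107 RPKM and Sorl1 at 64.3 to 84.1 RPKM. These 3 ranges did not overlap. Bin1 came next at 38.7 to 43.6 RPKM and Adam10 at 22.8 to 29.1 RPKM, while Bace1 (13.8 to 16.9 RPKM) and Picalm (11.9 to 15.4 RPKM) overlapped. The catalytic γ-secretase gene Psen2 (2.59 to 3.25 RPKM) and Cd2ap (1.16 to 2.11 RPKM) had the lowest levels per length. With the length of the longest coding transcript in place of all exons, Sorl1 (67.9 to 88.8 RPKM) and Bin1 (66.3 to 74.6 RPKM) overlapped, as did Adam10 (24.4 to 31.1) and Picalm (22.8 to 29.6 RPKM), and Psen2 (5.54 to 6.98) and Cd2ap (3.43 to 6.25 RPKM). All 9 levels per length were higher on this scale, least for Bace1, Sorl1 and Adam10.

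**Figure D1:**
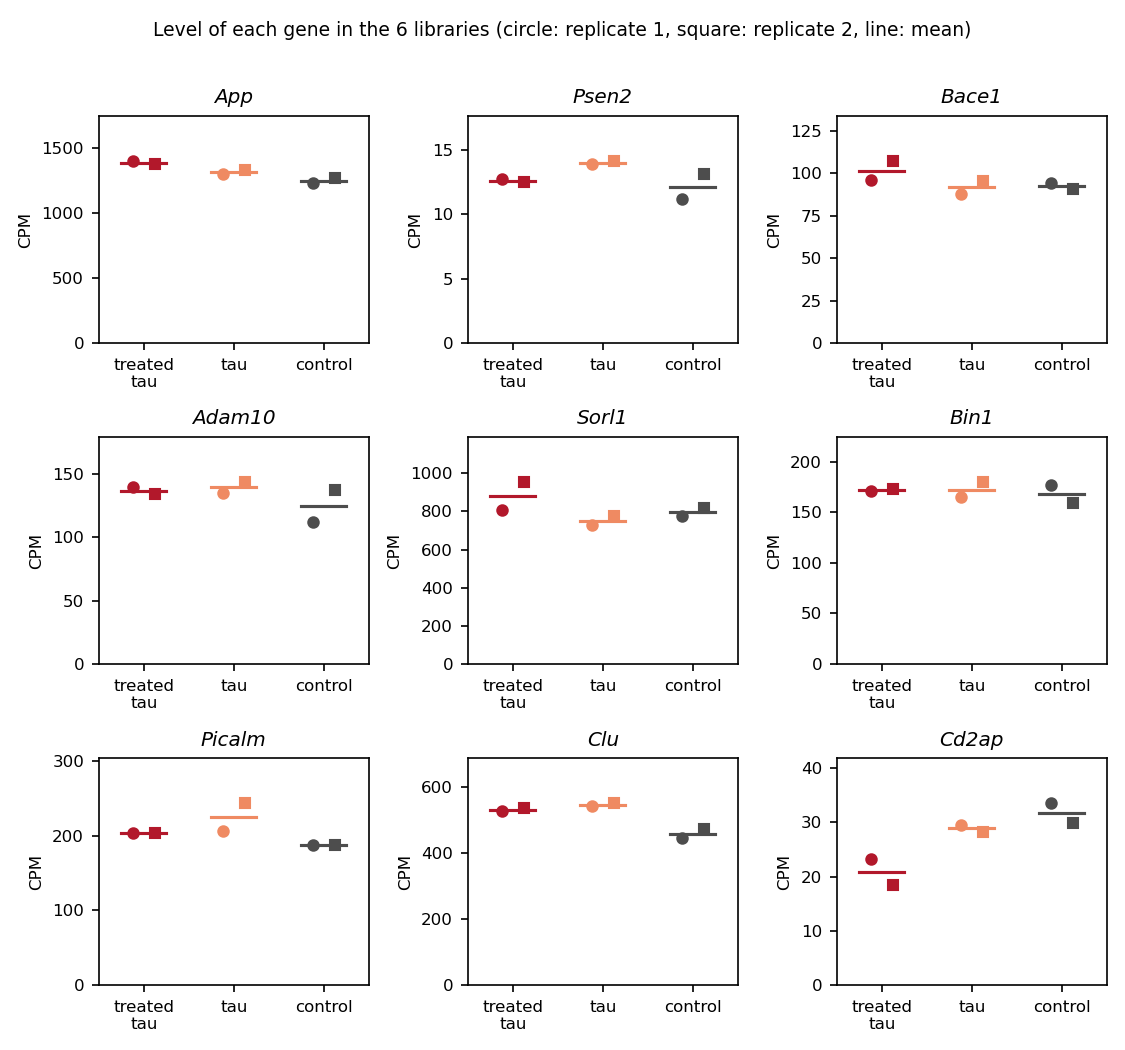
CPM of the 9 genes (vertical axes from 0, one panel each) in treated tau, tau and control libraries; circles are replicate 1, squares replicate 2 and lines the group means. The lowest values of Cd2ap, 23.3 and 18.4 CPM, are those of the treated tau libraries, and the lowest values of Clu, 444 and 472 CPM, those of control.

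App encodes the amyloid precursor itself (chromosome 16, 84949685 to 85173766, minus strand). It had 1395 and 1375 CPM in treated tau libraries, 1296 and 1328 CPM in tau libraries and 1226 and 1268 CPM in control libraries. The values of the 3 groups did not overlap, with treated tau highest and control lowest, but the steps were small. Tau set against control gave a log2 fold change of 0.07 ± 0.06 (SE), with a 95% interval of -0.07 to 0.21, and 0.08 ± 0.06 for treated tau against tau, with an interval of -0.06 to 0.22. For treated tau against control it was 0.15 ± 0.06 with an interval of 0.01 to 0.29, an 11% difference that did not pass (edgeR, adjusted p = 0.259). Non-overlap of the libraries alone is common in these data: it held for 41.6% of all tested genes in tau against control, 41.3% in treated tau against tau and 46.3% in treated tau against control.

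Of the cutting enzymes, none was called in any comparison. Adam10, the α-secretase (chromosome 9, 70678997 to 70780229, plus strand), had 139 and 134 CPM in treated tau, 135 and 143 CPM in tau and 112 and 137 CPM in control. The library labelled control 1 alone was low, and the other 5 lay within 134 to 143 CPM. Its log2 fold change was 0.16 ± 0.10 for tau relative to control (edgeR, adjusted p = 0.599) and -0.03 ± 0.10 for treated tau against tau (adjusted p = 0.963). Without control 1, the first of these was 0.03. Bace1, the β-secretase (chromosome 9, 45838580 to 45864399, plus strand), had 96 and 107 CPM in treated tau, 87.8 and 95.7 CPM in tau and 94.1 and 90.7 CPM in control. Both treated tau values were above all others, and the log2 fold change against tau was 0.14 ± 0.09 with an interval of -0.06 to 0.35 (edgeR, adjusted p = 0.631). Rnf214, Gm49338 and Gm16536 overlap 2061 bases of its exons on the other strand; the strand setting of the counting is not given in the sources used here, so their reads may be included. Psen2 (chromosome 1, 180227004 to 180263438, minus strand) had 12.7 and 12.5 CPM in treated tau, 13.9 and 14.1 CPM in tau and 11.2 and 13.1 CPM in control. Both tau values were the highest of the 6. The log2 fold changes, 0.21 ± 0.14 in tau relative to control and -0.15 ± 0.14 in treated tau relative to tau, did not pass (edgeR, adjusted p = 0.619 and 0.775), and with counts of 246 to 433 per library the 95% interval of the first ran from -0.11 to 0.53. That value was 0.10 without control 1 and 0.33 without control 2.

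Sorl1, the sorting receptor (chromosome 9, 41964720 to 42124297, minus strand), had 809 and 952 CPM in treated tau, 728 and 776 CPM in tau and 778 and 816 CPM in control. Treated tau 2 stood above all other libraries, and the 2 tau libraries were the lowest. For treated tau against tau, where the groups did not overlap, the log2 fold change was 0.23 ± 0.09 with an interval of 0.03 to 0.42, and it did not pass (edgeR, adjusted p = 0.298). It was 0.11 without treated tau 2 and 0.34 without treated tau 1. Tau against control gave -0.08 ± 0.09 (adjusted p = 0.748) and treated tau against control 0.14 ± 0.09 (adjusted p = 0.462), so Sorl1 in treated tau overlapped control.

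Picalm, a clathrin assembly protein (chromosome 7, 90130213 to 90213465, plus strand), had 204 and 203 CPM in treated tau, 206 and 243 CPM in tau and 187 and 187 CPM in control. Tau 2 stood apart from the other 5 libraries, and the control libraries were the lowest. The log2 fold change was 0.26 ± 0.09 for tau against control with an interval of 0.06 to 0.46 (edgeR, adjusted p = 0.443), and it was 0.14 without tau 2. Tau 2 was also the library with the most oligodendrocyte and striatal marker RNA; the part of this in the value of Picalm was not tested. Treated tau against tau gave -0.14 ± 0.09 (adjusted p = 0.632), with -0.02 without tau 2 and -0.25 without tau 1, and treated tau against control 0.12 ± 0.09 (adjusted p = 0.556).

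Bin1, an amphiphysin family protein that bends membranes and is abundant in oligodendrocytes as well as neurons (chromosome 18, 32377230 to 32435737, plus strand), was the least variable of the 9 relative to its level. It had 171 and 173 CPM in treated tau, 165 and 179.5 CPM in tau and 177 and 159.5 CPM in control. The groups overlapped in all 3 comparisons, and the log2 fold changes were 0.03 ± 0.08 in tau relative to control, 0.00 ± 0.08 in treated tau relative to tau and 0.03 ± 0.08 in treated tau relative to control (edgeR, adjusted p = 0.918, 0.999 and 0.897). Their 95% intervals all lay within -0.19 and 0.22. The sum of the 7 oligodendrocyte markers Mog, Mbp, Mobp, Mag, Cldn11, Mal and Cnp was 1828 and 2004 CPM in treated tau, 1725 and 3943 CPM in tau, and 1998 and 1009.8 CPM in control. Both the sum and Bin1 were highest in tau 2 and lowest in control 2, while the order of treated tau 2 and control 1 differed between them. The span of the markers from lowest to highest was far wider than that of Bin1, and their part in the values of Bin1 was not tested.

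**Figure D2:**
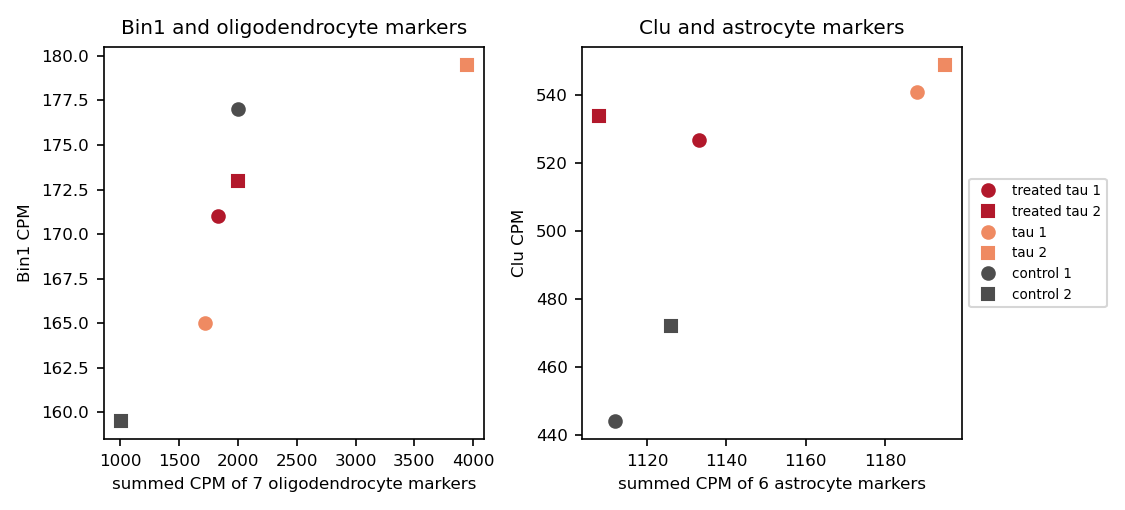
Left, Bin1 (vertical axis, CPM) against the summed CPM of 7 oligodendrocyte markers in the 6 libraries; right, Clu against the summed CPM of 6 astrocyte markers (axes do not start at 0). Bin1 spans 159.5 to 179.5 CPM and, like the marker sum, is highest in tau 2 and lowest in control 2, and Clu is at 527 and 534 CPM in treated tau, 541 and 549 CPM in tau and 444 and 472 CPM in control; the part of either cell type was not tested.

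Clu, the secreted chaperone clusterin (chromosome 14, 65968483 to 65981547, plus strand), had its 4 highest values in the 4 PS19 libraries, and no comparison of it passed the threshold. It had 527 and 534 CPM in treated tau, 541 and 549 CPM in tau and 444 and 472 CPM in control. All 4 PS19 libraries lay above both control libraries, as they also did for App and Picalm. The share of all genes with this order was not counted. Taken singly, libraries were higher without overlap for 20.3% of all genes in tau against control and 23% in treated tau against control. The log2 fold change was 0.25 ± 0.07 for tau against control, a difference of 18.9% with an interval of 0.10 to 0.40 on the log2 scale (edgeR, adjusted p = 0.441). For treated tau against control it was 0.21 ± 0.07 with an interval of 0.06 to 0.36 (adjusted p = 0.146), and for treated tau against tau -0.04 ± 0.07 with an interval of -0.19 to 0.11 (adjusted p = 0.913). The first 2 share the control libraries, and the library labelled control 1 carried Prnp at the level of the PS19 libraries; without it the log2 fold changes of Clu were 0.21 in tau and 0.17 in treated tau, each relative to control. In brain tissue Clu is made mainly by astrocytes. The sum of the 6 astrocyte markers Aqp4, Gja1, Slc1a3, Aldh1l1, Gfap and Fgfr3 was 1133 and 1108 CPM in treated tau, 1188 and 1195 CPM in tau and 1112 and 1126 CPM in control. Slc1a3 alone made up 589 to 657 CPM of it. The 6 markers did not move as one in tau against control: Gfap had a log2 fold change of 0.69 ± 0.21 and Aldh1l1 of 0.21 ± 0.09, and the other 4 lay between -0.04 and 0.07 (edgeR, adjusted p = 0.441 for Gfap and 0.487 for Aldh1l1). Gfap stood at 112 CPM in tau 2 but at 66.1 CPM in tau 1, against 60.1 and 49.5 CPM in control, so its value rests largely on tau 2. The part of astrocytes in the Clu values was not tested.

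Cd2ap, an adaptor that couples endocytosis to the actin cytoskeleton (chromosome 17, 42792951 to 42876665, minus strand), was the one gene called, at 34% lower in treated tau than in control. It had 23.3 and 18.4 CPM in treated tau, 29.5 and 28.3 CPM in tau and 33.5 and 29.9 CPM in control. The groups did not overlap in any of the 3 comparisons, with treated tau lowest and treated tau 2 below treated tau 1. The log2 fold change was -0.60 ± 0.13 for treated tau against control with an interval of -0.90 to -0.30 (edgeR, adjusted p = 0.033). For treated tau against tau it was -0.47 ± 0.14 with an interval of -0.77 to -0.17 (adjusted p = 0.125), and for tau against control -0.13 ± 0.13 (adjusted p = 0.735). Among the 1000 tested genes nearest to it in level, 94.9% spanned a smaller range over the 6 libraries than the 0.87 log2 units of Cd2ap. That range runs from control 1 to treated tau 2, which are libraries of the called comparison, so it adds no separate support to the call.

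The call of Cd2ap was lost in 8 of 16 alternative analyses, while the sign held in all 16. The log2 fold change was -0.51 (adjusted p = 0.168) without the library labelled control 1, -0.44 (adjusted p = 0.266) without treated tau 2, and -0.60 without tau 1 (adjusted p = 0.0585) or tau 2 (adjusted p = 0.0535). When protein-coding genes were fitted alone, it was -0.61 with an adjusted p of 0.191. Between libraries alike in Xist, the treated tau values (23.3 and 18.4 CPM) stood against 33.5 CPM in control 1, and the tau values (29.5 and 28.3 CPM) against 29.9 CPM in control 2. Each of these rests on 1 control library, and control 1 is the one whose Prnp level goes against its label.

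Much of the Cd2ap sequence has near-copies, few of them exact. Of its longest coding transcript, 5364 bases, 73.2% aligned at 85% identity or more to other annotated genes, while 2.71% of the 50-base words of its exons occurred exactly in other genes, against 28.8% for Ap2m1. How far reads of these genes were exchanged depends on the mismatches the alignment allowed and was not tested. One is Gm49797, a noncoding RNA gene at 96.6% identity over 37.5% of the transcript, and another is the processed pseudogene Gm6475 at 96.1% identity over 35.7%. Neither of these was analysed here. The third is the processed pseudogene Gm7529 (chromosome 9, 10734640 to 10736536), at 88.9% identity over 35.4% of the transcript. Gm7529, looked at for this similarity, had 0.38 and 0.373 CPM in treated tau, 1.17 and 1.03 CPM in tau and 0.789 and 1.29 CPM in control. Both genes were thus lowest in the treated tau libraries; Gm7529 had a log2 fold change of -1.46 ± 0.48 for treated tau against control (edgeR, adjusted p = 0.156) from 10 to 33 counts per library. The treated tau tables also hold a different symbol list from the other 4 tables. The part of near-copies and of the symbol lists in the Cd2ap values was not tested. Bace1 was next of the 9, with 34.1% of its transcript matching other genes, of which Rnf214 and Gm49338 lie on its opposite strand. The other 7 stood between 0% and 9.81%.

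**Figure D3:**
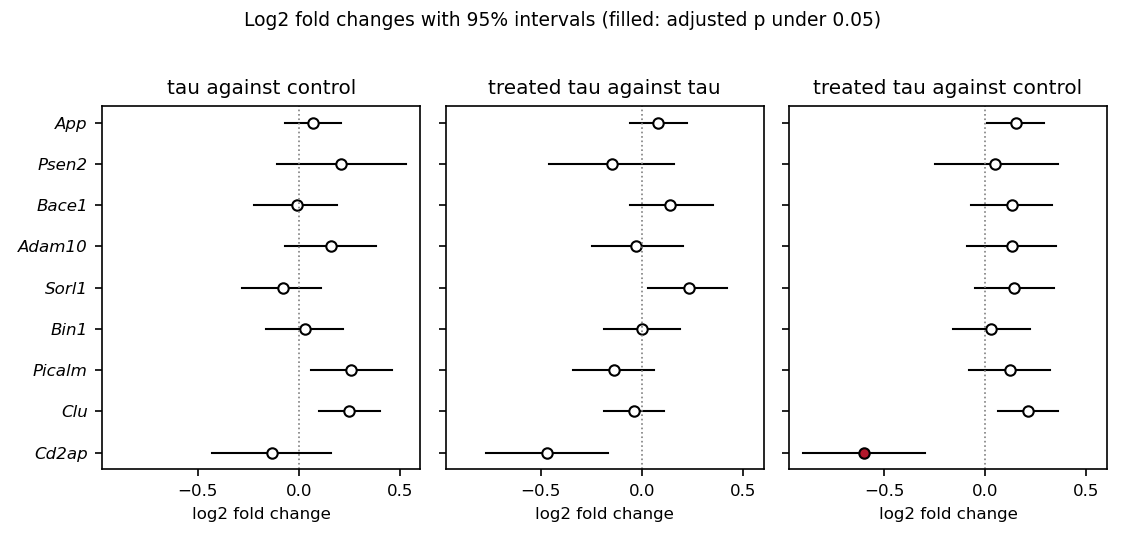
Log2 fold change (horizontal axis) of the 9 genes in each comparison, positive where the group named first is higher; bars are 95% intervals and the filled point marks an adjusted p under 0.05. Cd2ap at -0.60 in treated tau against control is the filled point, and the intervals of Clu and Picalm lie above 0 in tau against control.

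Trimethylation of histone H3 at K4, the mark named in the series title, is found at active promoters and mostly at those rich in CpG, the sequence CG. No mark was measured in these libraries. The promoters of the 2 genes with the smallest p in treated tau against tau, Cd2ap in the lower and Sorl1 in the higher direction, are shown to let their CpG content be compared. Each runs 5′ to 3′ from 250 bases before to 50 bases after the start given by RefSeq on GRCm38.p6, with each CG in capitals. Cd2ap is at chr17:42876375-42876674 on the minus strand and Sorl1 at chr9:42124248-42124547 on the minus strand.
Cd2ap: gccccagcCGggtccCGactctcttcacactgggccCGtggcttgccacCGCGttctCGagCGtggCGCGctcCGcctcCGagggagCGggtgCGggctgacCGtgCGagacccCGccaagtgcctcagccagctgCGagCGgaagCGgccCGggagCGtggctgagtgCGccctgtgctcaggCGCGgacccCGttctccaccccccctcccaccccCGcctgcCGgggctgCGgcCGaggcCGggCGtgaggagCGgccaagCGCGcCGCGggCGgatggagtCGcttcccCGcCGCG
Sorl1: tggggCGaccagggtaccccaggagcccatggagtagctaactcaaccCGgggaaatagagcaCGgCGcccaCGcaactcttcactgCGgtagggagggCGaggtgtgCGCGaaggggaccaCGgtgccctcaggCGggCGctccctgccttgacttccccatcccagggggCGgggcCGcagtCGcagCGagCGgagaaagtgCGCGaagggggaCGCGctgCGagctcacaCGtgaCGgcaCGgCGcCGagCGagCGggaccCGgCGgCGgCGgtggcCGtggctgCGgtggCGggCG
The motif CG, which reads the same on both strands, occurs 41 times in the Cd2ap window and 37 times in the Sorl1 window. Of 32851 RefSeq promoters of this length, 94.6% hold at least 1 CG, 3.46% hold as many as Cd2ap and 5.58% as many as Sorl1, and the median is 7. RefSeq windows were matched for 6 of the 9 genes; the first windows of Picalm (44), Adam10 (32), App (30) and Psen2 (23) were rich in CG too. A second RefSeq start of Sorl1, at chr9:42077164-42077463, had 9 CG in its window, a number that 45.8% of promoters reach, and a second start of Psen2 had 8.

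The closest relatives of the 9 genes were read beside them, and 0 of these relatives were called in any comparison by edgeR, DESeq2 or limma-voom. Of all genes, edgeR called 0%, 3.76% and 4.22% in tau against control, treated tau against tau and treated tau against control. At an unadjusted p under 0.05 edgeR gave 1 of the 8 named here, Sort1 in treated tau against control. It gave 9.95%, 12% and 16.3% of all genes in the same order of comparisons. Aplp1 and Aplp2, the other members of the precursor family, had 527 and 555 CPM and 576 and 567 CPM in treated tau, 564 and 547 CPM and 609.9 and 602 CPM in tau, and 555 and 562 CPM and 556 and 544 CPM in control. Aplp2 was highest in tau, at a log2 fold change of 0.14 ± 0.06 against control (edgeR, adjusted p = 0.506). Bace2, a relative of Bace1, stood at 3.17 to 7.10 CPM. Adam17, a second α-secretase, had 21.6 and 21.6 CPM in treated tau, 21.6 and 24.5 CPM in tau and 25.4 and 23.7 CPM in control. Sh3kbp1, the relative of Cd2ap, had 49.1 and 49.6 CPM in treated tau, 47.1 and 48.5 CPM in tau and 50.1 and 51 CPM in control. Its log2 fold change for treated tau against control was -0.04 ± 0.09 with an interval of -0.23 to 0.16, which lies above the -0.60 of Cd2ap; the difference between these 2 genes was not tested. Snap91, the relative of Picalm, and Amph, that of Bin1, had log2 fold changes within -0.02 and 0.08 in all 3 comparisons, and Sort1, a sorting receptor like Sorl1, had 0.05, 0.11 and 0.16 for tau against control, treated tau against tau and treated tau against control.

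Beyond the 9 genes, 62 genes of 6 lists from the same pathways were tested, and 0 of them were called by edgeR in any comparison. At an unadjusted p under 0.05 edgeR gave 6 of the 62 in tau against control, 9 in treated tau against tau and 3 in treated tau against control, where it gave 9.95%, 12% and 16.3% of all genes. The shares of all genes called were 0%, 3.76% and 4.22% in the same order. These 62 genes are protein-coding too, and with 14739 protein-coding genes fitted alone 0, 45 and 40 of all were called. Of the 62, DESeq2 called 0, 1 and 0, and limma-voom 0 in each. The gene that DESeq2 called was Lrp1, a large endocytic receptor that binds the amyloid precursor and clears amyloid β. Lrp1 had 607 and 615 CPM in treated tau, 457 and 496 CPM in tau and 544 and 670.3 CPM in control. Both tau libraries were below all others. Its log2 fold change was 0.36 ± 0.10 for treated tau against tau (edgeR, adjusted p = 0.0998) and -0.35 ± 0.10 for tau against control (adjusted p = 0.441), 2 values that share the tau libraries.

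The 13 sorting receptor and retromer genes had a median log2 fold change of 0.02 in tau against control, where the median of all tested genes was 0.00. Positive values stood at 7 of the 13 there, against 49.4% of all genes. Without overlap of the libraries, 6 of the 13 were lower and 3 higher in tau than in control, against 21.3% and 20.3% of all genes. The next comparison shares these tau libraries. Of the 13, 11 had positive values in treated tau against tau, where 48.7% of all genes did, with a median of 0.10 against -0.01 for all genes, and in 10 of them both treated tau libraries were above both tau libraries, as in 21.2% of all genes. In treated tau against control 11 of the 13 were positive too, where 48.8% of all genes were, with a median of 0.12 against -0.01. Without overlap, 7 were higher and 1 lower there, against 23% and 23.3% of all genes. In treated tau against tau, excitatory neuron markers were positive in 5 of 5 (median 0.12), oligodendrocyte markers in 0 of 7 (median -0.53) and striatal markers in 0 of 6 (median -1.05). Inhibitory interneuron markers were positive in 2 of 6 (median -0.04), astrocyte markers in 1 of 6 (median -0.08) and microglia markers in 1 of 6 (median -0.11). The part of these cell types in the values of the sorting genes was not tested. After Lrp1, the genes of smallest p were Gga1, a clathrin adaptor of the Golgi (0.30 ± 0.10, adjusted p = 0.238), in treated tau against tau, Sorcs2, a receptor related to Sorl1 (-0.24 ± 0.09, edgeR, adjusted p = 0.459), in tau against control, and the retromer gene Vps26a (0.21 ± 0.08, adjusted p = 0.234) and Rtn3 (0.18 ± 0.07, adjusted p = 0.253), a reticulon that inhibits BACE1, in treated tau against control.

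The 17 clathrin endocytosis genes had medians of 0.02, 0.05 and 0.05 in tau against control, treated tau against tau and treated tau against control. Ap2m1, the cargo-binding subunit of the AP2 adaptor, had 95.2 and 98.6 CPM in treated tau, 126 and 115 CPM in tau and 117 and 103 CPM in control. Both treated tau values were the lowest (log2 fold change against tau -0.32 ± 0.09, edgeR, adjusted p = 0.127; against control -0.19 ± 0.09, adjusted p = 0.368), and 28.8% of its 50-base words also occur in other genes, so reads may be split. The endophilin gene Sh3gl2 had 204 and 217 CPM in treated tau, 177 and 177 CPM in tau and 190.2 and 218 CPM in control, with 0.25 ± 0.09 for treated tau against tau (adjusted p = 0.217) and -0.21 ± 0.09 for tau against control (adjusted p = 0.482). Ap2s1, the small AP2 subunit, had 0.19 ± 0.08 in tau against control (adjusted p = 0.486) and 0.13 ± 0.08 in treated tau against control (adjusted p = 0.473).

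The 4 amyloid β degrading peptidases had medians of 0.17, -0.14 and -0.13 in the same order of comparisons. Mme, or neprilysin, had 9.56 and 10.1 CPM in treated tau, 11.1 and 17 CPM in tau and 9.95 and 11.7 CPM in control, and Ide, the insulin-degrading enzyme, had 106 and 113 CPM in treated tau, 151 and 123 CPM in tau and 136 and 101 CPM in control. For both, treated tau lay below tau without overlap, at -0.49 ± 0.20 for Mme and -0.32 ± 0.14 for Ide (edgeR, adjusted p = 0.362 and 0.408). Tau 2 held the highest Mme and tau 1 the highest Ide. In tau against control Mme (0.35 ± 0.20, adjusted p = 0.574) and Ece2 (-0.89 ± 0.53, adjusted p = 0.581, 9 to 53 counts per library) had the smallest p, and in treated tau against control Ece1 (0.17 ± 0.11, adjusted p = 0.504) and Ece2 (-0.40 ± 0.45, adjusted p = 0.723). Ece2 shares 54.6% of its 50-base words with the overlapping gene Gm49333, so its counts are uncertain.

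The 7 tested genes of the precursor family and its adaptors had medians of 0.02, -0.04 and 0.06, and no value beyond 0.14 in size in any comparison. The smallest p were those of Aplp2 (0.14 ± 0.06) and the adaptor gene Apba1 (-0.07 ± 0.09) in tau against control, of Apba1 (0.13 ± 0.09) and Aplp2 (-0.08 ± 0.06) in treated tau against tau, and of the adaptor genes Apbb2 (0.12 ± 0.11) and Apba2 (0.09 ± 0.08) in treated tau against control. The 8 other secretase subunits and proteases had medians of 0.03, -0.02 and 0.00. Of these the smallest p were those of Adam9 (0.10 ± 0.09) and Bace2 (-0.31 ± 0.33) in tau against control, of the γ-secretase subunit genes Aph1c (-0.17 ± 0.15) and Aph1a (0.18 ± 0.18) in treated tau against tau, and of Adam17 (-0.19 ± 0.11) and Adam9 (0.14 ± 0.09) in treated tau against control; Aph1a and Aph1c share 21.2% and 18.4% of their 50-base words with other genes. The 13 other Alzheimer risk locus genes had medians of -0.03, -0.02 and -0.03. Plcg2, a phospholipase of microglia and other immune cells, had 3.65 and 3.32 CPM in treated tau, 5.36 and 5.22 CPM in tau and 4.14 and 5.49 CPM in control, with -0.60 ± 0.23 for treated tau against tau (edgeR, adjusted p = 0.3) and -0.46 ± 0.22 against control (adjusted p = 0.353). The summed microglia markers were 277 and 281 CPM in treated tau, 289 and 312 CPM in tau and 247 and 291 CPM in control; their part in the Plcg2 values was not tested. Fermt2, an integrin activator, had 0.19 ± 0.10 in tau against control and 0.15 ± 0.10 in treated tau against control, the transcription factor gene Mef2c 0.15 ± 0.09 in tau against control, and the RNA-binding protein gene Celf1 0.13 ± 0.08 in treated tau against tau.

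**Figure D4:**
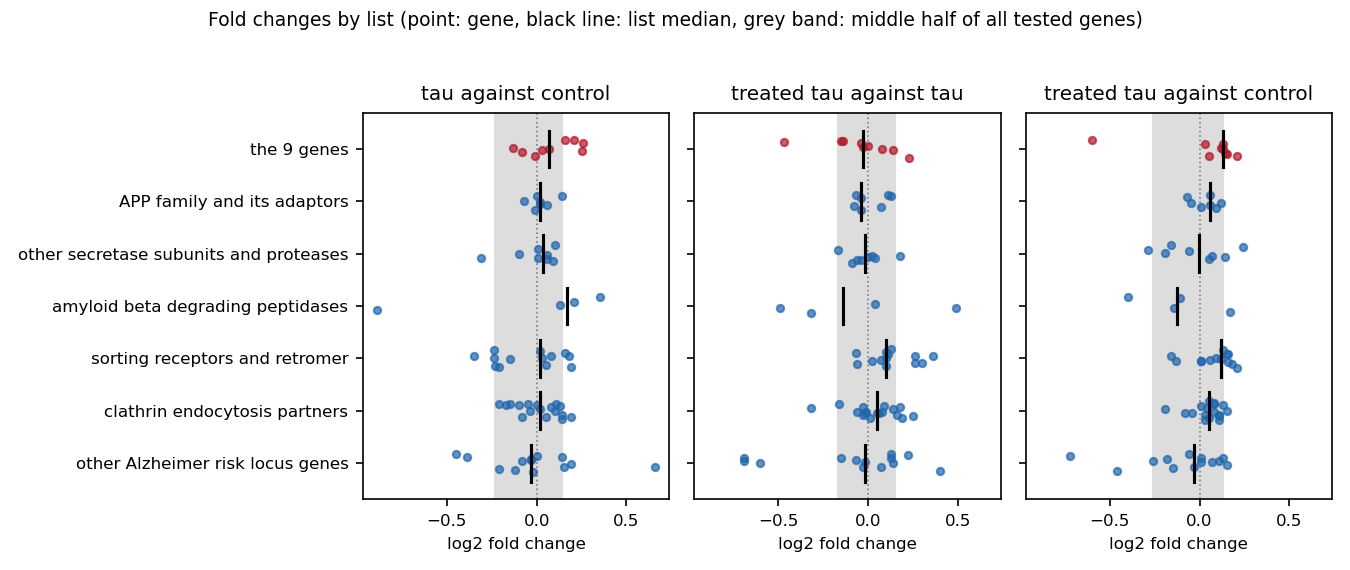
Log2 fold changes (horizontal axis, positive where the group named first is higher) of the 9 genes and of the 6 pathway lists in each comparison; points are genes, black lines list medians, and the grey band runs from the lower to the upper quartile of all tested genes. Of the sorting receptor and retromer genes, 11 of 13 are right of 0 in treated tau against tau, where 48.7% of all genes and 5 of 5 excitatory neuron markers (not drawn) are.

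The 9 genes did not share 1 pattern over the libraries. Likeness was measured as the root mean square (RMS) difference between log2 CPM profiles, each centred on its mean over the 6 libraries, among 14359 genes with an average log2 CPM of at least 1. Of the 9, Bace1 and Sorl1 were the closest pair, at an RMS difference of 0.056, followed by Psen2 and Adam10 at 0.058. Cd2ap was the farthest from the others, with Bin1 the nearest at 0.297. A flat profile would differ from Cd2ap by less, 0.286, and Bin1 itself differed from flat by only 0.058. Bin1 as the nearest is therefore no sign of a shared pattern. Among all genes, the profile of Clu was closest to Aldoc (RMS 0.013), Cap1 (0.015) and Tmsb4x (0.02), that of App to Ube2q1 (0.015), Fam210a (0.017) and Neto1 (0.018), and that of Bin1 to Gad2 (0.014). The genes closest to Cd2ap were Lama2 (0.062), Slc41a3 (0.066) and 2900060N12Rik (0.071). The nearest genes to Sorl1, Bace1, Picalm, Adam10 and Psen2 were Sel1l (0.025), Sept3 (0.019), Tmem168 (0.018), Gm49336 (0.02) and Tmtc3 (0.028).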

How the data were processed

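RNA of PFC tissue from 6 libraries was, per the labels' protocols, depleted of ribosomal RNA and made into stranded libraries; trimming was by Cutadapt, and TopHat2 aligned the reads to RefSeq mRNAs of the mouse. featureCounts, SAMtools, edgeR and mm10 appear in the submitters' processing notes; for versions, the strand setting and multiply aligned reads, nothing is given here. In the deposited tables the values are raw read counts per gene symbol, 1 table per library. The treated tau tables list 54134 symbols and the others 54429; the 53640 shared were used, and symbols outside them held 0.333% to 0.352% of the counts. Apbb3, a list gene, was not analysed here.

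Genes were kept by filterByExpr at a minimum count of 10, TMM factors were applied, and the counts were fitted in 1 model of all 6 libraries (edgeR 4.0.16 quasi-likelihood, two-sided, R 4.3.3; 3 residual degrees of freedom). Values are means of 2 libraries; SE and intervals come from the fit. Each p-value sets the difference between groups against the spread between these libraries. That spread was estimated with information shared over all genes, which gave 9.55 total degrees of freedom for the 9 genes. Alternatives used DESeq2 1.42.0, limma 3.58.1, RLE factors, no filter, other sets of libraries or genes, a replicate block and a term for Xist above 10 CPM. The model was tested on simulated data. Positions, lengths and near-copies came from GENCODE M21 (mm10), the latter by shared 50-base words and by blastn (75 bases or more, 85% identity). Named genes were the 9 members, their relatives in the lists, and of each list the called genes (up to 4) or the 2 of smallest p per comparison, beside the 3 genes of most similar profile. Members, lists and marker genes were chosen with earlier results of these data known. A few marker genes are not reported here, and the marker sums were made without them.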

Additional observations from a re-analysis of the deposited data

How the results depend on the processing

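The number of the 9 genes called was 0 in tau against control and in treated tau against tau under all 16 alternatives. In treated tau against control it was 1 (Cd2ap), and it was 0 with no filter, with the 2 compared groups alone, with protein-coding genes alone and with control 1 and tau 2 left out together (an alternative chosen after seeing the data); with each library left out in turn it ranged from 0 to 1. Cd2ap had an adjusted p between 0.0103 (DESeq2) and 0.266 over these alternatives.

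Of all genes, 0 were called in tau against control (2059 at an unadjusted p under 0.05 by edgeR), 54 by DESeq2, 130 with control 1 and tau 2 left out together, and 0 to 98 with 1 library left out: 98 without control 2 and 9 without tau 2. In treated tau against tau 779 were called, 45 with protein-coding genes alone, 166 with the Xist term, and 355 to 840 with 1 library left out (355 without tau 1, 429 without treated tau 1, 423 without treated tau 2 and 504 without tau 2). In treated tau against control 873 were called, 40 with protein-coding genes alone, and 494 to 816 with 1 library left out (494 without treated tau 2 and 507 without treated tau 1).

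Of the pathway lists, 0 genes were called in each comparison. Leaving out control 1 and tau 2 gave 2 in tau against control (Ide and Lrp1) and 3 in treated tau against tau (Ap2m1, Ide and Lrp1). In treated tau against tau, DESeq2, the 2 compared groups alone and the Xist term gave 1 each, Lrp1, and leaving out 1 library gave 0 to 1 (1 without either control library). The sample numbers are not said to mark pairs, and deviations of same-numbered libraries correlated at 0.0101, 0.0733 and -0.00799 over 20694 genes in the 3 comparisons. With the replicate block the counts over all genes were 0, 709 and 796, and of the 9 genes 0, 0 and 1 were called. The Xist term was set by control 1 against control 2 alone, as both tau libraries are above 10 CPM and both treated tau libraries below. Its calls in treated tau against tau, that of Lrp1 included, therefore do not separate sex from treatment. The differences of Clu and Picalm did not pass here, and the part of having 2 libraries a group in this was not tested.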
